A study of Bos taurus with 72 samples.

Results

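The calgranulins S100A8, S100A9 and S100A12 were followed in the blood of beef cattle at 3 stages. The 3 genes were taken from the count table by their Ensembl identifiers (ENSBTAG00000012640 for S100A8, ENSBTAG00000006505 for S100A9 and ENSBTAG00000012638 for S100A12). They are 3 of the 24616 genes listed, and all 3 were among the 12655 genes that had enough reads to be tested. The same 24 male Bos taurus cattle gave blood at the entry, pulled and close-out stages, which makes 72 libraries of poly-A RNA from whole blood kept in PAXgene tubes. The study title places the work in bovine respiratory disease. In cattle feeding, an animal is called pulled when it is taken from its pen for examination or treatment. The labels used here give no diagnosis, treatment, age or sampling date for any animal, and every animal is in all 3 stages. A stage therefore carries age and time in the study with it, and these cannot be told apart from illness. No samples are labelled as healthy animals of matched age.

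Calgranulins are small calcium-binding proteins of the S100 family that neutrophils and monocytes hold in their cytoplasm in large amounts. S100A8 and S100A9 pair into calprotectin, which binds zinc and manganese and so withholds them from bacteria. S100A12, also called EN-RAGE, is released by activated neutrophils. In work on mice and humans, S100A8 and S100A9 released from cells act on the receptor TLR4. The receptor RAGE is a reported target of S100A12. They are widely used as markers of neutrophil-driven inflammation. In the RefSeq table for the cattle assembly ARS-UCD2.0, S100A8, S100A12 and S100A9 are neighbours in that order with no other gene listed between them.

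Libraries held between 8239194 and 29142042 counts assigned to genes. The identity of 2 libraries and a split at entry touch every result and are given first. The library labelled pulled of animal 9 could hardly be told from the entry library of animal 11: the chi-square statistic of their counts per degree of freedom was 1.46, against 29.1 for the next most alike of the 2556 pairs. Correlations were then taken over the 100 genes whose levels correlated best between stages across the animals other than 9 and 12. Over these genes, the pulled library of animal 9 correlated at 0.98 with the entry library of animal 11, and at -0.12 with the entry library of its own animal. For the pulled library of animal 12, the correlation was 0.09 with its own entry library and 0.07 with its own close-out library, whereas the other 68 pairs from the same animal reached at least 0.82. Most of those 68 pairs also served to choose the genes. High values were thus favoured there, and 0.82 is no independent benchmark. The stage fold changes over all animals, the share, the mean ratios that involve S100A9 and the correlations at pulled are given with and without them. The set differences in ratios were tested only with them. Entry libraries also fell into sets by the number in the sample title. The TMM scaling factor at entry was 0.806 ± 0.0966 (SD, n = 6) in animals with title numbers above 100 and 1.14 ± 0.0876 (SD, n = 18) in animals with lower numbers. The titles do not say what the numbers stand for, so each main result is also given within these sets.

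Of the 3 calgranulins, S100A9 alone passed the test both at pulled relative to entry, where it rose, and at close-out relative to pulled, where it fell. At entry its level had a lowest value of 402, a median of 1404 and a highest value of 25170.4 CPM (counts scaled to a common library total, after TMM correction). At pulled the lowest, median and highest levels were 708, 4503 and 14839 CPM, and at close-out they were 641, 1307 and 10713.1 CPM. The stages overlapped over most of their range, and animal 5 at entry, animal 2 at pulled and animal 10 at close-out stood highest. Levels in whole blood are averages over cell types, so more calgranulin-bearing cells and more transcript per cell cannot be told apart here.

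S100A9 rose at pulled relative to entry by 1.09 on the log2 scale (SE 0.33, 95% interval 0.42 to 1.75), with an adjusted p of 0.00851 by edgeR's quasi-likelihood test with animal as a block and Benjamini-Hochberg adjustment over all genes tested. In that comparison 42.0% of the genes tested passed, and 20.2% passed in the upward direction. S100A9 was higher at pulled in 17 of 24 animals, and 22.3% of the genes tested were higher in as many animals. Without the pulled libraries of animals 9 and 12 the log2 fold change was 0.95 (edgeR adjusted p = 0.0215, with 43.0% of genes passing), and without animal as a block it was 0.65 (edgeR adjusted p = 0.115).

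S100A9 fell at close-out relative to pulled: its log2 fold change was -1.54 (SE 0.32, 95% interval -2.18 to -0.91, edgeR adjusted p = 0.0002), a comparison in which 27.2% of genes passed and 13.9% passed in the downward direction. It was lower at close-out in 21 of 24 animals, and 3.9% of the genes tested were lower in as many. Leaving out the 2 doubtful libraries gave a log2 fold change of -1.40 (edgeR adjusted p = 0.00096, with 26.7% of genes passing). The log2 fold change at close-out relative to entry was -0.46 (SE 0.32, 95% interval -1.11 to 0.20, edgeR adjusted p = 0.297), with 12 animals higher and 12 lower, and it was -0.26 without animal 5. Scaling by library totals alone kept both S100A9 calls (0.96 at pulled relative to entry and -1.41 at close-out relative to pulled, edgeR adjusted p = 0.00882 and 0.000173). It moved the balance of all genes: at pulled relative to entry 1565 genes were called higher and 4539 lower, against 2552 and 2768 with TMM, and at close-out relative to pulled 2786 were called higher and 872 lower, against 1681 and 1765 with TMM. At close-out relative to entry the split was 1501 higher and 1073 lower, against 1295 and 1517 with TMM. Over all genes, the median under that scaling was a log2 fold change of -0.19, 0.13 and -0.04 in these 3 comparisons. The 3 comparisons share libraries, so a high pulled library enters both the first and the second.

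**Figure D1:**
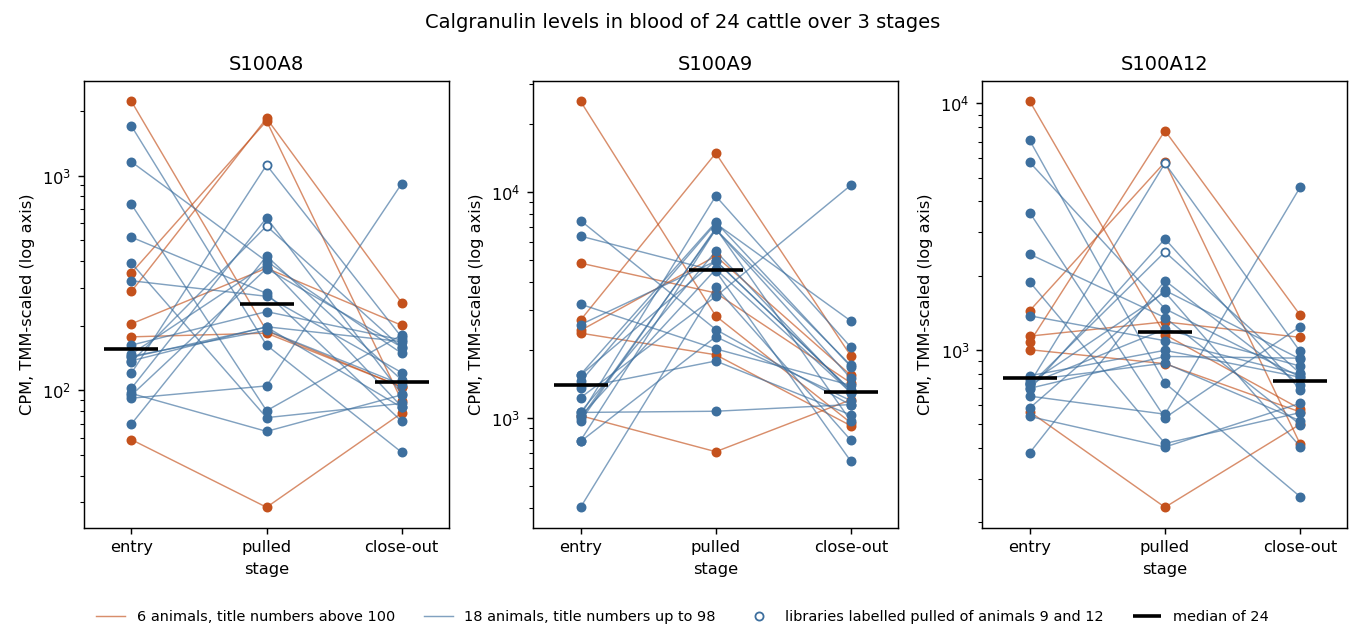
Level of S100A8, S100A9 and S100A12 in each of the 24 animals at entry, pulled and close-out, in CPM on a log axis; lines join the 3 libraries of an animal, orange marks the 6 animals with title numbers above 100 and blue the other 18, open circles mark the pulled libraries of animals 9 and 12, and black bars are medians. The median of S100A9 is 4503 CPM at pulled, against 1404 CPM at entry and 1307 CPM at close-out, while single animals run in every direction.

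S100A8, the partner of S100A9 in calprotectin, had a lowest level of 58.9, a median of 155 and a highest level of 2219.7 CPM at entry. Its lowest, median and highest levels were 28.5, 253 and 1850 CPM at pulled and 51.4, 109 and 919 CPM at close-out. Animal 4 was lowest at entry and at pulled, and animals 5, 2 and 10 were again the highest at entry, pulled and close-out. At pulled relative to entry S100A8 was higher in 15 of 24 animals, and 36.1% of the genes tested were higher in as many. Its log2 fold change there was 0.25 (SE 0.41, 95% interval -0.57 to 1.07, edgeR adjusted p = 0.628). It was 0.07 without the 2 doubtful libraries, 0.07 without animal 9 and 0.45 without animal 16. S100A8 fell at close-out relative to pulled: its log2 fold change was -1.17 (SE 0.39, edgeR adjusted p = 0.0200). It was lower in 19 of 24 animals, and 9.7% of the genes tested were lower in as many. The call was lost without the 2 doubtful libraries, where the log2 fold change was -0.95 with an edgeR adjusted p of 0.0722.

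S100A12, the ligand of RAGE, ran from 383 to 10187.5 CPM at entry around a median of 770 CPM. Its median was 1183 CPM at pulled, within 230.0 to 7746 CPM, and 749 CPM at close-out, within 254 to 4568 CPM. The ranges overlapped, but the highest level at close-out, in animal 10, stood below the highest at entry and at pulled, and the next animal at close-out had 1384 CPM. At pulled relative to entry S100A12 was higher in 13 of 24 animals, and 46% of the genes tested were higher in as many. Its log2 fold change there was 0.10 (SE 0.37, 95% interval -0.64 to 0.84, edgeR adjusted p = 0.839). The direction was not stable: it was -0.08 without the 2 doubtful libraries, -0.07 without animal 9, -0.04 with library totals alone and 0.29 without animal 16. At close-out relative to pulled S100A12 was lower in 19 of 24 animals, and 9.7% of the genes tested were lower in as many. Its log2 fold change there was -0.86 (SE 0.35, 95% interval -1.57 to -0.15, edgeR adjusted p = 0.0631). Without the 2 doubtful libraries it was -0.64 (edgeR adjusted p = 0.187). S100A12 passed that test when animal 4 was left out (-0.94, edgeR adjusted p = 0.0472) or animal 10 (-1.02, edgeR adjusted p = 0.0172).

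None of the 3 genes passed at close-out relative to entry, a comparison in which 22.2% of the genes tested passed with edgeR and 12.0% passed in the downward direction. The log2 fold change was -0.92 for S100A8 (SE 0.40, edgeR adjusted p = 0.0809) and -0.76 for S100A12 (SE 0.36, edgeR adjusted p = 0.112). The unadjusted edgeR p was under 0.05 for these 2 genes, as it was for 4841 of the 12655 genes, and DESeq2 called both among 3622 genes. Both also passed without animal 10, where the log2 fold changes were -1.12 (edgeR adjusted p = 0.0288) for S100A8 and -0.94 (edgeR adjusted p = 0.0460) for S100A12. Animal 10 was the highest animal at close-out for every member. Its S100A8 level there was 919 CPM, with the next animal at 256 CPM, and its S100A9 level was 10713.1 CPM, with the next at 2681 CPM.

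The change of S100A9 at pulled was compared between the title sets, a split that was itself noticed in the entry libraries of these data. Among the 6 animals with title numbers above 100, S100A9 ran from 1022 to 25170.4 CPM at entry around a median of 2572 CPM, from 708 to 14839 CPM at pulled around 3196 CPM, and from 922 to 1877 CPM at close-out around 1314 CPM. Among the other 18 animals the medians were 1144 CPM at entry, 4743 CPM at the pulled stage and 1307 CPM at close-out. S100A9 was higher at pulled than at entry in 2 of the 6 and in 15 of the 18.

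Fitted within each set, the log2 fold change of S100A9 at pulled relative to entry was -0.20 in the 6 animals (SE 0.66, edgeR adjusted p = 0.834) and 1.52 in the 18 (SE 0.34, edgeR adjusted p = 0.000163). The share of all genes that passed was 41.3% within the 6 and 70.9% within the 18. The test of the difference itself, the 6 minus the 18, gave a log2 value of -1.70 (SE 0.73, edgeR adjusted p = 0.0367), in a comparison where 68.4% of genes passed. That difference was -1.09 (edgeR adjusted p = 0.157) when libraries were scaled by their totals alone. That scaling also moved the median of this difference over all genes to 0.65, against 0.03 with TMM, and the genes called became 6650 higher and 1613 lower, against 4558 higher and 4093 lower with TMM. The S100A9 difference was -1.55 (edgeR adjusted p = 0.0583) without the 2 doubtful libraries. The same difference was 0.31 for S100A8 (SE 0.97) and 0.12 for S100A12 (SE 0.88), with edgeR adjusted p of 0.786 and 0.912. Their errors are too wide to show that these 2 genes behaved alike in the sets.

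S100A9 at close-out relative to pulled changed on the log2 scale by -1.35 in the 6 animals (SE 0.63, edgeR adjusted p = 0.304, 2.52% of genes passing) and by -1.58 in the 18 (SE 0.33, edgeR adjusted p = 0.000401, 27.9% of genes passing). The difference between the sets was 0.22 (SE 0.69, edgeR adjusted p = 1), and 0% of the 12655 genes passed that test with edgeR or with limma-voom (261 and 247 genes had an unadjusted p under 0.05). At close-out relative to entry S100A9 had a log2 fold change of -1.54 in the 6 animals and of -0.06 in the 18 (edgeR adjusted p = 0.0737 and 0.884). The share of all genes that passed was 40.1% in the 6 and 64.7% in the 18. The difference of -1.48 did not pass (SE 0.72, edgeR adjusted p = 0.0677), in a test that 64.6% of genes passed. S100A8 at close-out relative to pulled had a log2 fold change of -1.56 in the 6 and of -1.06 in the 18, neither past the threshold (edgeR adjusted p = 0.370 and 0.0595).

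**Figure D2:**
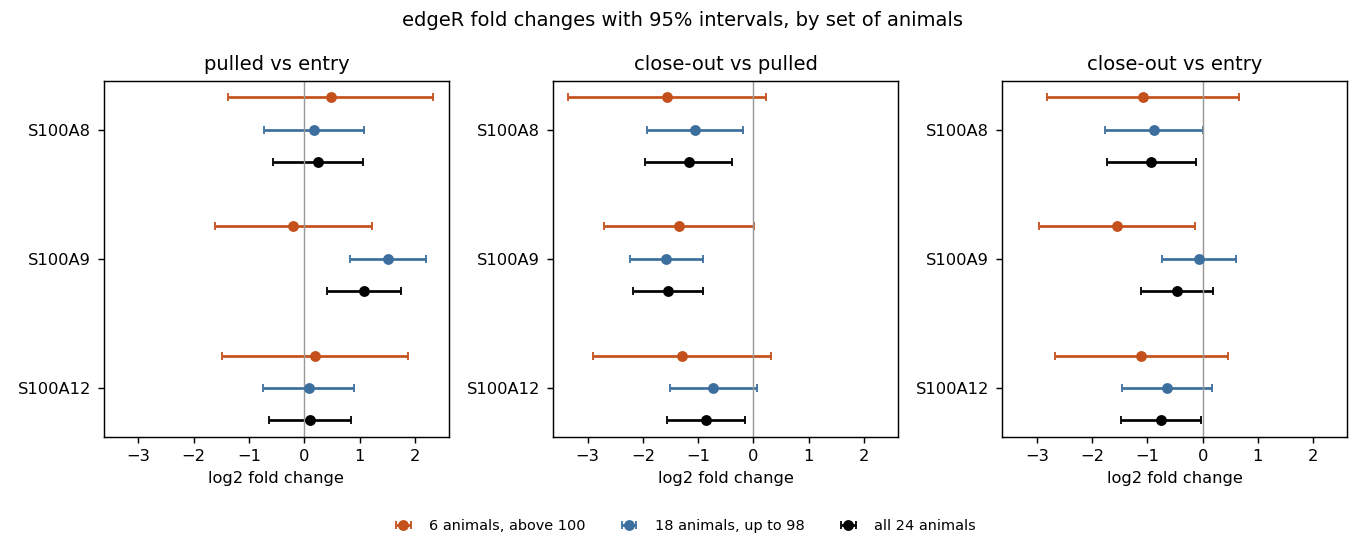
Log2 fold change of each calgranulin in the 3 stage comparisons, with 95% intervals from edgeR, for the 6 animals with title numbers above 100, the 18 with lower numbers, and all 24. For S100A9 at pulled relative to entry the estimates are -0.20, 1.52 and 1.09, and at close-out relative to pulled they are -1.35, -1.58 and -1.54.

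As a share of the library, the 3 calgranulins together took 0.501% ± 0.592 of the counts at entry, 0.654% ± 0.458 at the pulled stage and 0.273% ± 0.218 at close-out (SD, n = 24 each). The medians were 0.254%, 0.513% and 0.202%. The share at entry was lowest in animal 4 (0.150%, 95% Wilson interval 0.148 to 0.152) and highest in animal 5 (2.54%, 2.53 to 2.55). At pulled it was lowest in animal 4 again (0.0939%, 0.0923 to 0.0956) and highest in animal 2 (2.05%, 2.04 to 2.05). At close-out it was lowest in animal 16 (0.123%, 0.121 to 0.124) and highest in animal 10 (1.24%, 1.24 to 1.25). These intervals cover counting error only.

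The share exceeded 0.5% in 5 animals at entry, in 13 at pulled (animals 9 and 12 among them) and in 1 at close-out. It was lower at close-out than at pulled in 20 of 24 animals, by 0.381 percentage points on average (two-sided sign-flip permutation test over animals, p = 0.0027 after adjustment over the 3 stage pairs). Without animals 9 and 12 this difference was -0.331 (adjusted permutation p = 0.00831). Within the 18 animals the same difference was -0.328 (adjusted permutation p = 0.0223), within the 6 it was -0.542 (adjusted exact permutation p = 0.188), and within the 18 without animals 9 and 12 it was -0.251 (adjusted permutation p = 0.0829). At pulled relative to entry the share was higher in 17 of 24 animals with a mean difference of 0.153 percentage points (adjusted permutation p = 0.371). On the log2 scale the mean difference was 0.61 (adjusted permutation p = 0.0891). In percentage points it was 0.0796 without animals 9 and 12, 0.0844 without animal 2 and 0.253 without animal 5 (adjusted permutation p = 0.654, 0.609 and 0.124). The mean difference at close-out relative to entry was -0.228 (adjusted permutation p = 0.171), and without animal 10 it was -0.282 (adjusted permutation p = 0.0215).

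The animals with a high share changed from stage to stage. Of the 5 animals over 0.5% at entry, animal 5 had 2.54% at entry, 0.391% at the pulled stage and 0.188% at close-out. Animal 16 had 1.69%, 0.491% and 0.123% in that order of stages, and animal 11 had 1.56%, 0.393% and 0.201%. These 3 animals were highest at entry and lowest at close-out. The other 2 animals did otherwise: animal 1 had 0.745%, 0.243% and 0.369%, lowest at pulled, and animal 20 had 0.611%, 0.631% and 0.160%, about as high at pulled as at entry. Animal 2 had 0.304% at entry, 2.05% at the pulled stage and 0.385% at close-out, and animal 19 had 0.199%, 1.18% and 0.253%, so both peaked at pulled. Animal 10 peaked last, with 0.223% at entry, 0.347% at the pulled stage and 1.24% at close-out.

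**Figure D3:**
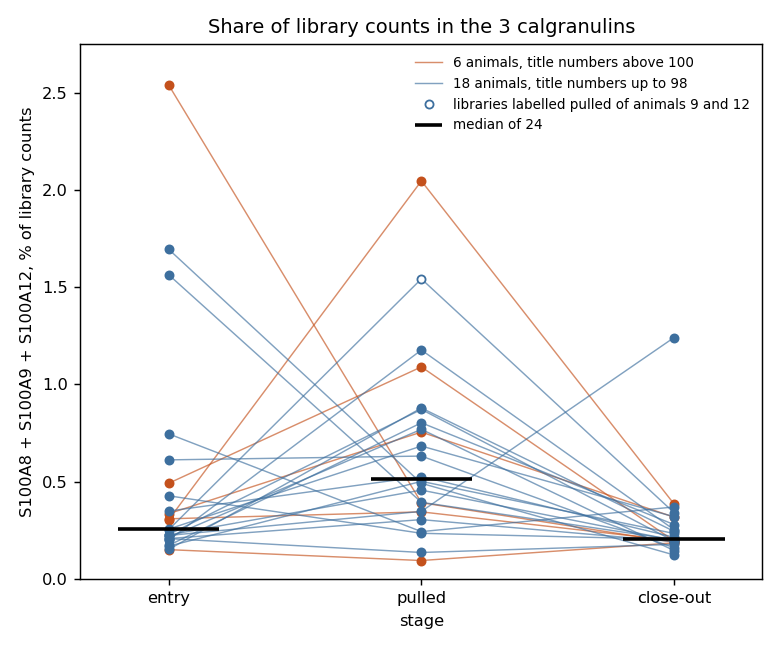
Summed counts of S100A8, S100A9 and S100A12 as a percentage of all counts assigned to genes, one point per library, with lines joining the 3 libraries of an animal, orange for the 6 animals with title numbers above 100 and blue for the other 18, open circles for the pulled libraries of animals 9 and 12, and black bars for medians. The share exceeds 0.5% in 5 animals at entry, 13 at the pulled stage and 1 at close-out.

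S100A8 was highest at entry in 8 animals, at pulled in 14 and at close-out in 2. For S100A9 the numbers were 6, 15 and 3, and for S100A12 they were 9, 13 and 2. Without animals 9 and 12, the peak was at pulled in 12 of 22 animals for S100A8, 13 for S100A9 and 11 for S100A12. All 3 genes peaked at the same stage in 17 of 24 animals. S100A8 and S100A12 peaked together in 21 animals, and S100A8 and S100A9 in 18.

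The balance among the calgranulins shifted between stages. Ratios of counts within a library do not depend on scaling, but they are not per length, so only their change is read. The log2 ratio of S100A9 to S100A8 counts was 2.99 ± 0.73 at entry, 3.89 ± 0.90 at the pulled stage and 3.46 ± 0.53 at close-out (SD, n = 24 each). It was higher at pulled than at entry in 19 of 24 animals, by 0.90 on average (sign-flip permutation test, p = 0.00742 after adjustment over 9 ratio tests). The log2 ratio of S100A12 to S100A9 counts was -0.60 ± 0.64 at entry, -1.62 ± 0.76 at the pulled stage and -0.92 ± 0.52 at close-out. It was lower at pulled than at entry in 19 animals, by 1.03 on average (adjusted permutation p = 0.00324), and higher at close-out than at pulled in 22 animals, by 0.70 (adjusted permutation p = 0.00522). S100A9 thus made up a median of 55.5% of the 3 genes' counts at entry, 74% at the pulled stage and 60.5% at close-out. Without animals 9 and 12, the mean log2 ratio of S100A9 to S100A8 was 2.97, 3.96 and 3.51 in that order of stages. That of S100A12 to S100A9 was -0.58, -1.69 and -0.96.

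The ratio of S100A12 to S100A8, the S100 genes outside and inside calprotectin, moved far less. Its log2 value was 2.39 ± 0.29 at entry, 2.26 ± 0.30 at the pulled stage and 2.53 ± 0.19 at close-out. It was higher at close-out than at pulled in 20 of 24 animals, by 0.27 on average (adjusted permutation p = 0.00126). Its difference of -0.13 at pulled relative to entry (adjusted permutation p = 0.0461) was lost without animals 9 and 12 (-0.12, adjusted permutation p = 0.0941), and also without any single animal other than 1, 2, 5, 15, 17 and 24 (up to p = 0.0856). The S100A9 to S100A8 difference of -0.43 at close-out relative to pulled (adjusted permutation p = 0.0461) was as fragile, since it was lost without any single one of the animals other than 3, 9, 11 and 19 (up to p = 0.0852), and without animals 9 and 12 together it was -0.45 (adjusted permutation p = 0.0564). Relative to entry, the close-out log2 ratio of S100A9 to S100A8 was higher by 0.47 in the mean (16 of 24 animals, adjusted permutation p = 0.0136). The S100A12 to S100A8 and S100A12 to S100A9 differences between close-out and entry were 0.14 and -0.33 (adjusted permutation p = 0.0417 for each). The first was lost without any single one of animals 1, 2, 5, 13, 14, 16, 18, 20, 21, 22 and 24 (up to p = 0.0647), and the second without any single one of animals 14, 16, 18, 19, 20, 21, 22, 23 and 24 (up to p = 0.0601).

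The ratios were also compared between the title sets. The log2 ratio of S100A9 to S100A8 at entry was 3.66 ± 0.30 in the 6 animals and 2.77 ± 0.69 in the 18, and at pulled it was 3.28 ± 1.25 in the 6 and 4.09 ± 0.67 in the 18. Its change at pulled relative to entry was -0.37 in the 6 (higher in 3 of 6) and 1.32 in the 18 (higher in 16 of 18, adjusted permutation p = 0.000405). The difference between the sets was -1.69 (permutation of the set labels, p = 0.00715 after adjustment over 9 such tests). For S100A12 to S100A9 the change was 0.22 in the 6 and -1.44 in the 18, where 17 of 18 animals were lower, and the sets differed by 1.66 (adjusted permutation p = 0.00715). Among the 16 animals left in the larger set without animals 9 and 12, this ratio was lower at pulled than at entry in 16 and higher at close-out than at pulled in 16. The smallest p that the exact sign-flip test allows over 6 animals is 0.03125 before adjustment. No ratios of other genes were compared between the sets. As single genes, 68.4% of the genes tested differed between the sets at pulled relative to entry with edgeR. The lowest S100A9 to S100A8 ratio at pulled was 0.99 on the log2 scale, in animal 3, whose pulled library held 1798 CPM of S100A8, 3570 CPM of S100A9 and 5774 CPM of S100A12.

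**Figure D4:**
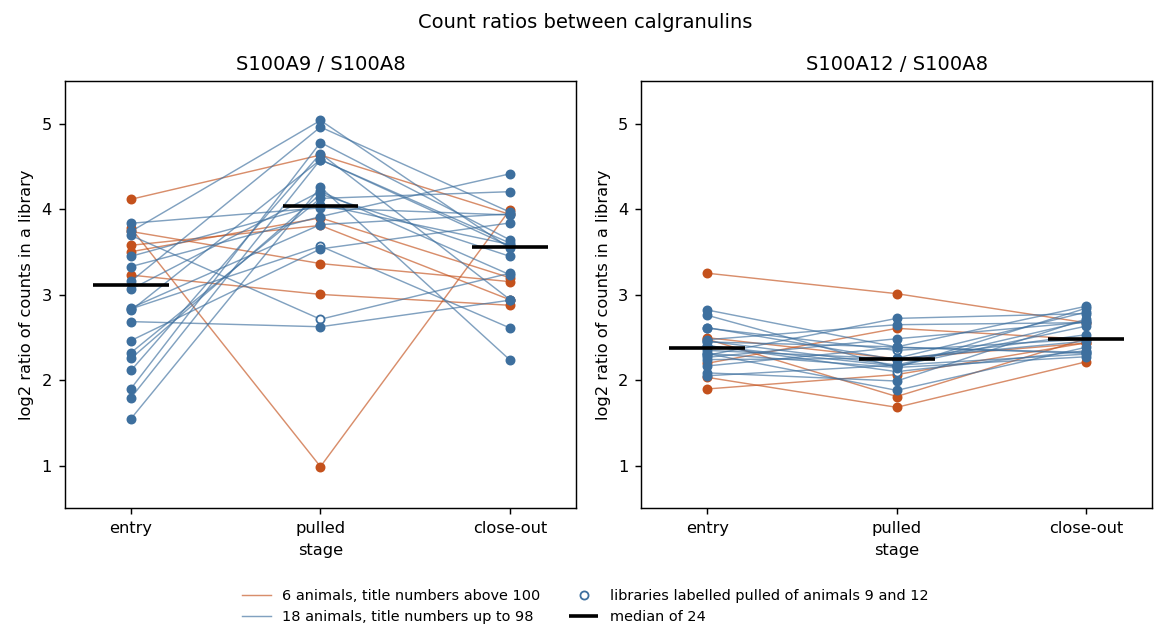
Log2 ratio of S100A9 to S100A8 counts and of S100A12 to S100A8 counts within each library, by stage, with lines joining the 3 libraries of an animal, orange for the 6 animals with title numbers above 100, blue for the other 18, open circles for the pulled libraries of animals 9 and 12, and black bars for medians. The mean log2 S100A9 to S100A8 ratio is 2.99 at entry, 3.89 at the pulled stage and 3.46 at close-out, against 2.39, 2.26 and 2.53 for S100A12 to S100A8.

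Between animals of one stage the 3 genes varied together, and S100A8 and S100A12 did so almost in lockstep. Over the 24 animals, Pearson's r of log2 CPM between S100A8 and S100A12 was 0.984 at entry, 0.988 at the pulled stage and 0.972 at close-out (Spearman's rho 0.975, 0.979 and 0.970). Without the 2 animals farthest from the median of S100A8, r was 0.972, 0.984 and 0.932. Between S100A8 and S100A9, r was 0.862 at entry, 0.792 at the pulled stage and 0.776 at close-out (rho 0.801, 0.787 and 0.492), and r was 0.771, 0.660 and 0.384 without the 2 farthest animals. The close-out relation of S100A8 and S100A9 therefore rested on animals 10 and 2. Between S100A9 and S100A12, r was 0.874, 0.793 and 0.780 (rho 0.800, 0.810 and 0.483), and r was 0.771, 0.704 and 0.508 without the farthest animals. Without animals 9 and 12, r at pulled was 0.989 between S100A8 and S100A12. It was 0.777 between S100A8 and S100A9 and 0.785 between S100A9 and S100A12. Within the title sets, r between S100A8 and S100A12 was 0.968, 0.990 and 0.978 over the stages in the 6 animals and 0.992, 0.987 and 0.973 in the 18. Between S100A8 and S100A9 it was 0.988, 0.865 and 0.707 in the 6 and 0.866, 0.804 and 0.796 in the 18, and between S100A9 and S100A12 it was 0.984, 0.871 and 0.658 in the 6 and 0.886, 0.804 and 0.806 in the 18. The close-out relations of S100A9 were weaker by rank within the sets: with S100A8, rho was 0.486 in the 6 (adjusted exact permutation p = 0.356) and 0.457 in the 18 (adjusted permutation p = 0.0645), and with S100A12 it was 0.486 in the 6 (adjusted exact permutation p = 0.356) and 0.420 in the 18 (adjusted permutation p = 0.0839). Without the 2 farthest animals, the close-out r of S100A8 and S100A9 was -0.73 in the 6 and 0.112 in the 18. In the 9 relations over all 24 animals the permutation p, adjusted over the 9, lay between 1.5e-05 and 0.00075 for r and between 2.25e-05 and 0.0176 for rho. The smallest p that the permutations can give is 1e-05 before adjustment.

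Across all 72 libraries, S100A8 and S100A12 were each other's most correlated gene among 10394 well-counted genes (Spearman's rho 0.979). S100A9 ranked 6th for S100A8, while S100A8 ranked 100th for S100A9 (rho 0.776) and S100A12 ranked 136th (rho 0.750). Within a stage, S100A12 was the gene most correlated with S100A8 at entry, pulled and close-out alike, while S100A9 ranked 28th, 109.5th (tied) and 859th for S100A8 in that order of stages, and S100A8 ranked 130.5th, 160.5th and 1015.5th for S100A9. The libraries share animals, stages and scaling, so these values describe likeness only. The 2 genes most like the mean of the 3 calgranulins were ENSBTAG00000003882 (rho 0.879) and ENSBTAG00000031332 (rho 0.845), which the files do not name. ENSBTAG00000003882 had log2 fold changes of 0.22 at pulled relative to entry and -0.43 at close-out relative to pulled (edgeR adjusted p = 0.185 and 0.0150). ENSBTAG00000031332 had log2 fold changes of 0.74 at pulled relative to entry and -1.33 at close-out relative to pulled (edgeR adjusted p = 0.00737 and 5.97e-06).

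**Figure D5:**
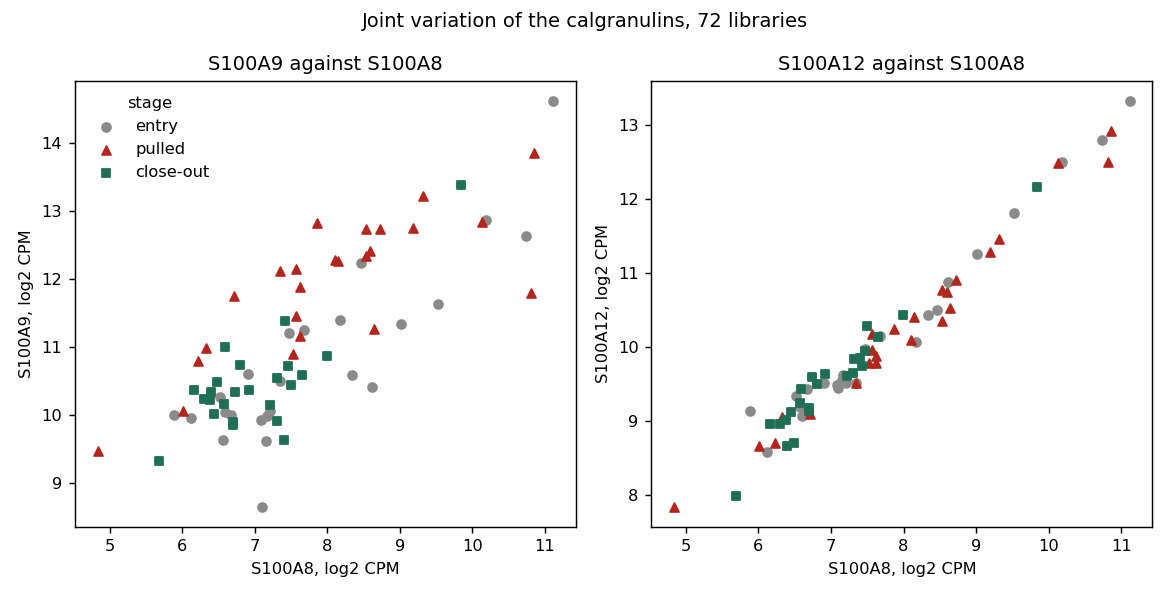
Level of S100A9 and of S100A12 against the level of S100A8 in the same library, in log2 CPM, with 24 animals in each of the 3 stages. S100A12 follows S100A8 closely at each stage (r 0.984, 0.988 and 0.972), while S100A9 scatters more widely (r 0.862, 0.792 and 0.776).

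An animal's levels at different stages were mostly not shown to be related. In 9 relations of a gene between stages, Pearson's r lay between -0.27 and 0.25 and none passed (adjusted permutation p of 0.760 to 0.880). Spearman's rho for S100A9 between close-out and pulled was 0.558 (adjusted permutation p = 0.0469), where r was 0.252. Without animals 9 and 12 that rho was 0.618 (adjusted permutation p = 0.0221), where r was 0.279. Within the 6 animals rho was 0.829 (adjusted exact permutation p = 0.525) and within the 18 it was 0.465 (adjusted permutation p = 0.486), and on the log2 share of library counts it was 0.303 over all 24 (adjusted permutation p = 0.874). The spread between animals, as the SD of log2 CPM at entry, pulled and close-out, was 1.43, 1.45 and 0.82 for S100A8, 1.30, 1.02 and 0.77 for S100A9, and 1.26, 1.24 and 0.79 for S100A12. The smaller SD at close-out did not pass a permutation test for any gene (adjusted p of 0.306 to 0.685 in the 6 tests of close-out, adjusted over 9 tests). Within the 18 animals, the SD at entry, pulled and close-out was 1.36, 1.13 and 0.88 for S100A8 and 1.05, 0.86 and 0.86 for S100A9. For S100A12 it was 1.22, 1.00 and 0.84. Within the 6 animals it was 1.72, 2.28 and 0.69 for S100A8, and 1.56, 1.47 and 0.40 for S100A9. For S100A12 it was 1.44, 1.87 and 0.70 there.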

How the data were processed

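The authors deposited raw read counts per Ensembl gene, which were used as deposited. The alignment and counting tools were TopHat2 and HTSeq, on the cattle build UMD3.1, per the submitters' processing notes. Tool versions, strand setting and the handling of multiply mapped reads: not given in the sources used here, and reads shared with near-identical or overlapping genes cannot be traced. RNA came from whole blood, and only samples above an RNA integrity limit were sequenced, per the labels' protocols. The 3 members and the tests were chosen with earlier results of these data known, and the split by title number was noticed in the data. The tests of the set difference in ratios were added after the data were seen.

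Genes with low counts were removed with edgeR's filterByExpr (edgeR 4.0.16, limma 3.58.1, R 4.3.3). Counts were scaled by TMM and fitted with quasi-likelihood models over all 72 libraries, with animal as a block, and an adjusted p under 0.05 was called. The procedure was also run on simulated counts for pulled relative to entry, with far fewer changed genes than were called here. That run does not show how the fit behaves on these data. Shares and ratios were tested by sign-flip permutations over animals (100000 resamples, exact for 6 animals, scipy 1.17.1). DESeq2 1.42.0 was an alternative. Libraries were paired by the labels' animal numbers: deviations from the stage mean correlated at a median of 0.193 in 72 pairs from the same animal (41 over 0.1) and of -0.02 between animals. The named genes are the 3 members and the 2 genes most correlated with their mean among genes whose log2 CPM averaged 1 or more. The files name no genes, and 0 of the 24616 identifiers matched the RefSeq table. The planned pathway and cell type lists were therefore not analysed here, and the blood label was not checked against markers. Replicates are separate animals. Other settings tried were another scaling (RLE, library totals), other filters, limma-voom, the 2 stages alone, the title sets, the doubtful libraries left out and each animal left out.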

Additional observations from a re-analysis of the deposited data

Results flagged for a closer look

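Among the 6 animals with title numbers above 100, animal 5 stood apart at entry for all 3 genes. Its levels were 2219.7 CPM of S100A8, 25170.4 CPM of S100A9 and 10187.5 CPM of S100A12, and the next highest of the 6 were 352, 4839 and 1443 CPM. Animal 2 stood apart at pulled with 14839 CPM of S100A9, where the next was 5201 CPM. These 4 were found in 9 groups of 6 values by Dixon's test on CPM. For normally spread values, the test flags a small share of groups by chance. CPM values were skewed upward here, so that share can be larger, and log2 CPM was not tested in this way. The 3 genes of one library are also not independent.

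The title sets, the 6 animals minus the 18, differed in the change of S100A9 at pulled relative to entry (-1.70 on the log2 scale, edgeR adjusted p = 0.0367), a test that 68.4% of all genes passed. The call was lost with library totals (-1.09, edgeR adjusted p = 0.157) and without the doubtful libraries (-1.55, edgeR adjusted p = 0.0583). They also differed in the change of the log2 ratio of S100A9 to S100A8 at pulled relative to entry (-1.69) and at close-out relative to entry (-1.03), and of S100A12 to S100A9 in the same comparisons (1.66 and 0.92). The adjusted permutation p was 0.00715 for each of these 4 ratio changes. No ratios of other genes were compared between the sets. As single genes, 64.6% of the genes tested differed between the sets at close-out relative to entry with edgeR. The TMM factor at entry, 0.806 in the 6 and 1.14 in the 18, moved with the sets, and its part in the S100A9 difference was not tested. Ratios of counts within a library do not use it.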

How the results depend on the processing

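Of 336 values under other settings, 294 were counted as unchanged, as were 512 of 576 values with 1 animal left out. Unchanged meant the same side of the threshold, and the same direction where either value passed. A value that passed in neither setting counted as unchanged even where its direction turned, as for S100A12 at pulled relative to entry. Numbers of genes called counted as unchanged when they stayed within a set factor of the main number. Without animal as a replicate block, S100A9 at pulled relative to entry no longer passed (log2 fold change 0.65), whereas S100A12 at close-out relative to pulled (-1.04), S100A8 (-1.33) and S100A12 (-1.09) at close-out relative to entry did pass. DESeq2 also called these last 3 (-0.86, -0.92 and -0.76), and the fit of the 2 stages alone called S100A12 at close-out relative to pulled (-0.77). Without the block, the ratio differences of -0.43 (S100A9 to S100A8, close-out minus pulled), -0.13 and 0.14 (S100A12 to S100A8, pulled minus entry and close-out minus entry) and -0.33 (S100A12 to S100A9, close-out minus entry) did not pass.

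Within the 6 animals, S100A9 at pulled relative to entry was -0.20, and at close-out relative to pulled S100A8 was -1.56, S100A9 -1.35 and the share -0.542. There, the log2 ratio of S100A9 to S100A8 changed by -0.37 (pulled minus entry), 0.067 (close-out minus pulled) and -0.31 (close-out minus entry), that of S100A12 to S100A8 by -0.15, 0.22 and 0.061, and that of S100A12 to S100A9 by 0.22, 0.15 and 0.37. None of these passed. Without the doubtful libraries, S100A8 at close-out relative to pulled was -0.95, and it was -1.06 within the 18 and -0.74 within the 18 without them. The S100A12 to S100A8 change at pulled was -0.12 without animals 9 and 12, -0.12 within the 18 and -0.10 within the 18 without them, and S100A9 to S100A8 at close-out minus pulled was -0.45 without animals 9 and 12. The share at close-out minus pulled was -0.251 in the 18 without them. The S100A9 set difference was -1.09 with library totals and -1.55 without the doubtful libraries at pulled relative to entry, and passed at close-out relative to entry with limma-voom (-1.45).

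Genes called numbered 5320 at pulled relative to entry, 8984 within the 18 and 9212 without the doubtful libraries there. At close-out relative to pulled they numbered 3446, and 314 within the 6. At close-out relative to entry they numbered 2812, 8199 within the 18, 8391 in the 18 without the doubtful libraries and 4990 within the 6. With 1 animal left out, they ranged from 2021 to 4285 there (highest without animal 2). The range with 1 animal left out was -0.282 to -0.136 for the share at close-out minus entry, -1.02 to -0.72 for S100A12 at close-out relative to pulled, and -1.12 to -0.73 for S100A8, -0.63 to -0.26 for S100A9 and -0.94 to -0.57 for S100A12 at close-out relative to entry. For ratios it was -0.58 to -0.36 (S100A9 to S100A8, close-out minus pulled), -0.15 to -0.11 and 0.12 to 0.17 (S100A12 to S100A8, pulled minus entry and close-out minus entry), and -0.38 to -0.28 (S100A12 to S100A9, close-out minus entry). The cause of these shifts was not tested.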
